A study of Mus musculus with 5 samples.

Results

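The genes described here encode the machinery of fatty acid oxidation and the nuclear receptors and coactivators that regulate it. They are 39 named genes of mitochondrial and peroxisomal oxidation, out of 32793 genes in the deposited tables. The list was drawn up by name, with earlier results of these data known. All 39 were found in both tables, and 38 passed the filter on low counts. The exception was Fabp1. The libraries are bulk RNA-seq of whole mouse kidneys at embryonic day 15.5. The group NICD_mut (2 libraries) had the genotype Six2TGC/+, RosaN1ICD∆PEST. Six2TGC makes Cre recombinase in nephron progenitors, and the Rosa allele then expresses an activated Notch1 that lacks its PEST degradation domain. The group NICD_wt (3 libraries) was made of littermates with RosaN1ICD∆PEST but no Cre, so every kidney carried the Notch1 allele and Cre was present in NICD_mut alone. Effects of the Cre driver and of activated Notch1 cannot be told apart. The labels do not tie libraries to single animals, and the p-values below cover the spread among these 5 libraries only, which may be technical.

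Fatty acids enter a cell with the help of CD36 and FATP transporters, are joined to coenzyme A, and cross into mitochondria on carnitine. There they are shortened in repeated cycles of dehydrogenation, hydration, a second dehydrogenation and thiolysis, while peroxisomes handle very long and branched chains. PPAR receptors, which pair with RXR, and the estrogen-related receptors with their PGC-1 coactivators switch on many of these genes. In the mature kidney the proximal tubule depends on this pathway for most of its energy.

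Libraries held 17361823 to 21356447 counts. As a check of the labels, Notch1 had 288 and 324 CPM (counts scaled to library size, after TMM) in NICD_mut, against 127, 142 and 120 CPM in NICD_wt. That count does not separate the transgene from the native gene. NICD_mut 1 stood apart by its skeletal muscle transcripts. A list of 8 skeletal muscle markers summed to 3197 and 22.7 CPM in NICD_mut 1 and 2, against 149, 19.7 and 22.6 CPM in NICD_wt 1 to 3. Of the lists of cell markers, 7 of 8 nephron progenitor genes fell, 7 of 8 podocyte genes rose and 4 of 7 red cell genes rose. Of 2 tested adrenal cortex genes, 0 passed by edgeR, 0 at an unadjusted p under 0.05, and 0 by DESeq2 or limma.

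Several transcripts for fatty acid uptake, entry into mitochondria, peroxisomal oxidation and breakdown of unsaturated chains were higher in NICD_mut kidneys. The electron-transfer genes Etfa, Etfb and Etfdh did not pass in counts. The levels of Decr1, Ehhadh, Slc27a2, Cd36, Cpt1a and Cpt2 rose 1.65- to 2.56-fold. Cpt1b, Fabp3, Acaa1b, the coactivator Ppargc1a and the receptor Esrrg fell. In all, 13 of 38 tested members rose, 7 fell and 18 did not pass, by the quasi-likelihood test of edgeR with Benjamini-Hochberg adjustment over 15885 genes and a threshold of 0.05. In either direction 52.6% of members passed, where 47.7% of all genes did. The members that rose are 34.2% of those tested, where 23.0% of all tested genes rose. The members that fell are 18.4%, where 24.8% of all genes fell. At a change of at least 2-fold, 7.89% of members rose and 5.26% fell, close to 7.93% and 4.01% of all genes. The median log2 fold change, NICD_mut minus NICD_wt, was 0.10 over the members and 0.01 over all tested genes. In the other deposited unit, TPM (scaled for gene length and depth), 19 members rose and 5 fell by limma on log2(TPM + 1). The median of all genes was then shifted by 0.11 log2, and 61.3% of changed genes were higher, against 48.1% in the counts. The 6 members that passed in TPM alone were Ppard, Esrra, Acsl1, Acadvl, Eci2 and Etfdh, at 0.20 to 0.29 log2. Acads and Cpt1b no longer passed there. In whole kidneys, fewer cells of a type and less RNA per cell cannot be told apart.

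**Figure D1:**
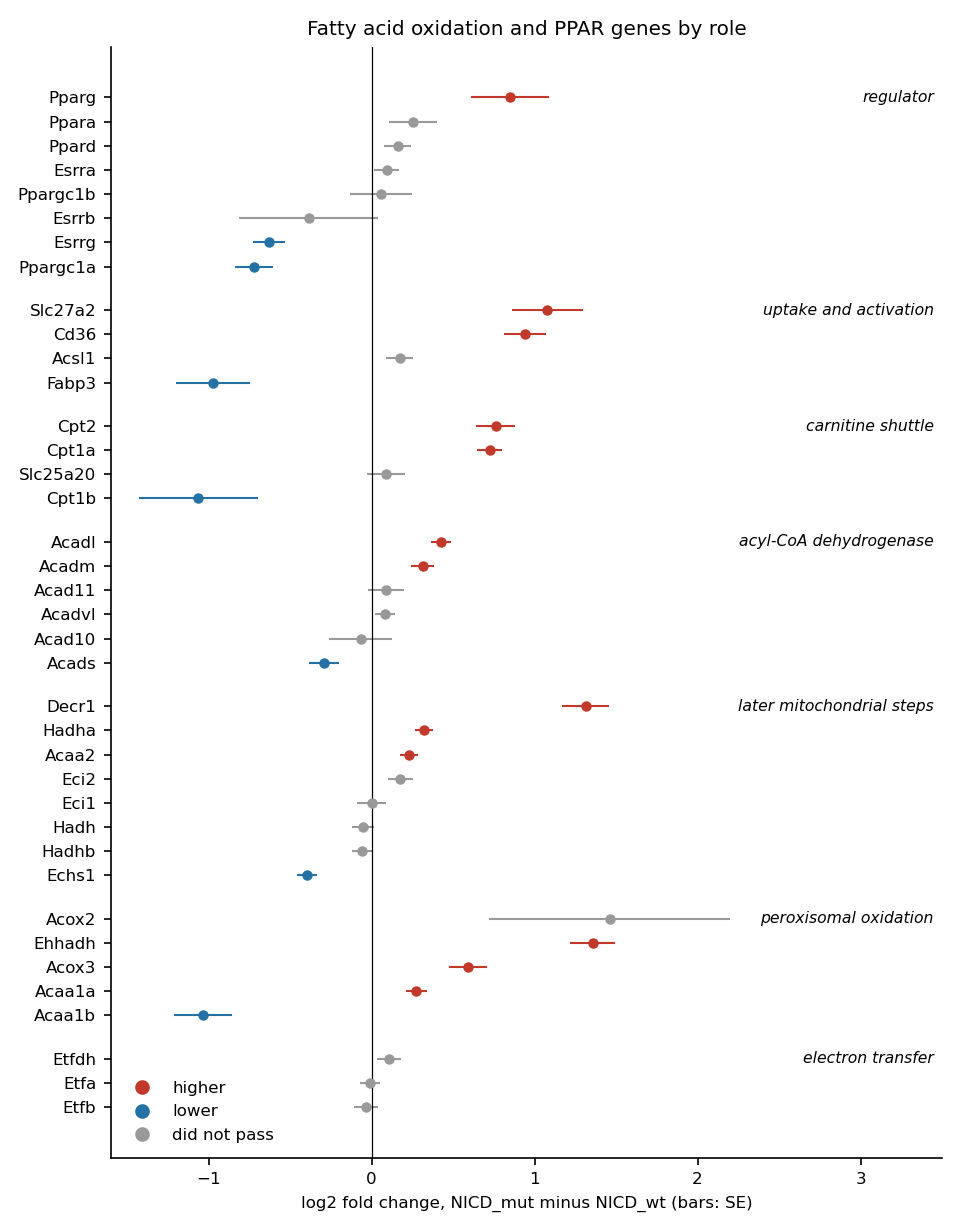
Log2 fold change of each tested member (points, with SE bars), NICD_mut minus NICD_wt, grouped by role; red points rose, blue points fell and grey points did not pass. Points run from Acox2 at 1.46 and Ehhadh at 1.36 to Acaa1b at -1.03 and Cpt1b at -1.06, and the 3 electron-transfer genes lie near 0.

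The members differed widely in level. The highest level per length was that of Etfb. This subunit of the flavoprotein that takes electrons from the acyl-CoA dehydrogenases was at 243 and 262 TPM in NICD_mut, against 229, 233 and 252 TPM in NICD_wt. The groups overlap. At the other end were the peroxisomal oxidase Acox2, the receptor Esrrb and the liver-type fatty acid carrier Fabp1, each under 2 TPM in every library. All members together summed to 2345 and 2384 TPM in NICD_mut, against 1985, 2035 and 2027 TPM in NICD_wt. In CPM the sums were 2354 and 2487 in NICD_mut, against 2091, 2116 and 2118 in NICD_wt, and the groups do not overlap on either scale. Between the groups 20 tested members were separated with NICD_mut on top and 7 with NICD_mut below. These are 52.6% and 18.4% of the tested members, where 32.9% and 34.2% of all tested genes were so separated.

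**Figure D2:**
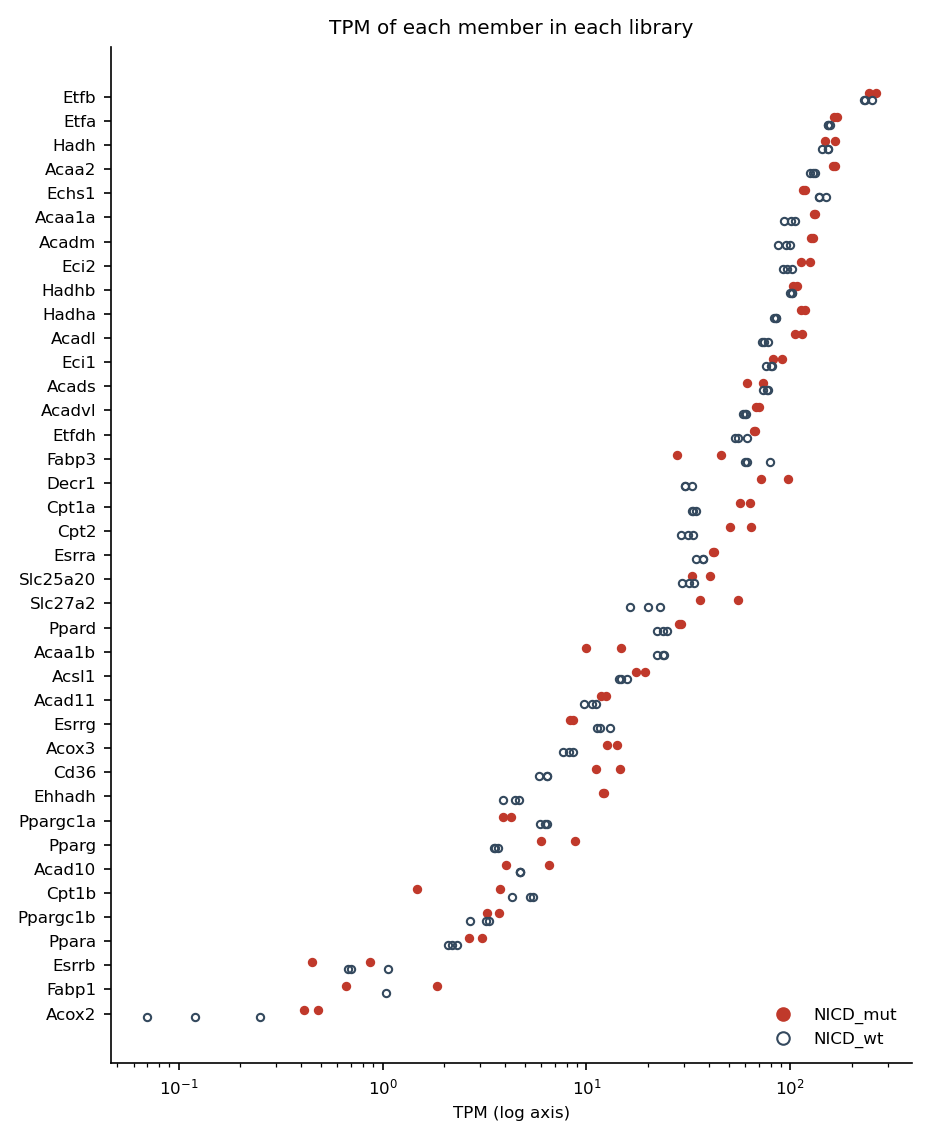
TPM of each member in each library on a log axis, ordered by mean level; filled red points are NICD_mut and open dark points NICD_wt, and values of 0 are left out. Etfb tops the order at 229 to 262 TPM, and Acox2 is lowest, under 0.5 TPM in every library.

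Among the regulators, 1 of 8 rose and 2 fell. These are 12.5% and 25%, where 23.0% and 24.8% of all tested genes did so. The receptor most linked to fatty acid oxidation, Ppara, did not pass. Ppara had 12.5 and 11.2 CPM in NICD_mut, against 9.82, 9.54 and 10.4 CPM in NICD_wt. Both NICD_mut values lay above all NICD_wt values, but the difference of 0.25 log2 (SE 0.14, adjusted p = 0.179) did not pass. Ppard, the broadly expressed PPAR, was the most abundant of the 3 at 28.6 and 29.0 TPM in NICD_mut, against 23.7, 25.0 and 22.1 TPM in NICD_wt. Its change in counts was 0.16 log2 (SE 0.08, adjusted p = 0.146).

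Pparg, the PPAR best known from fat cells, rose. It had 8.25 and 5.57 CPM in NICD_mut, against 3.67, 3.70 and 4.14 CPM in NICD_wt, a change of 0.85 log2 (SE 0.24, adjusted p = 0.0175). The groups did not overlap, and NICD_mut 1 was the highest library. The call was lost without NICD_mut 1 (0.54 log2, adjusted p = 0.151), without NICD_wt 1 (0.82, adjusted p = 0.0556) and without NICD_wt 2 (0.82, adjusted p = 0.0549). None of 7 fat cell markers had enough counts to be tested. They summed to 1.55 and 0.049 CPM in NICD_mut, against 0.352, 0.047 and 0.230 CPM in NICD_wt. Ucp1 had no count in any library, and Adipoq and Lep had none but 1 count each in NICD_wt 3. In NICD_mut 1, where Pparg was highest, Cidea reached 22 counts, Cidec 7 and Plin1 4. In NICD_mut 2 Cidea and Cidec stood at 0 and Plin1 at 1. Libraries NICD_wt 1 to 3 held 5, 1 and 0 of Cidea, 0 of Cidec, and 0, 0 and 1 of Plin1. Retn was seen only in NICD_wt 1 and 3, with 2 and 1. The part of fat cells in the Pparg result was not tested.

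Ppargc1a, which encodes the coactivator PGC-1α, fell. It had 14.0 and 16.2 CPM in NICD_mut, against 25.7, 25.2 and 23.6 CPM in NICD_wt, a change of -0.72 log2 (SE 0.12, adjusted p = 0.000992). Every NICD_mut value was below every NICD_wt value, and the call held without each library in turn. The related coactivator Ppargc1b had 7.41 and 6.71 CPM in NICD_mut, against 7.10, 5.94 and 7.31 CPM in NICD_wt. Those groups overlapped (0.06 log2, SE 0.19, adjusted p = 0.820).

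The estrogen-related receptors, orphan nuclear receptors that work with PGC-1, differed in their calls, with 1 of 3 lower. Esrrg had 25.3 and 25.7 CPM in NICD_mut, against 38.3, 43.2 and 37.0 CPM in NICD_wt, and fell by 0.63 log2 (SE 0.10, adjusted p = 0.000784). The groups were well separated, and the call held without each library. Esrra had 49.3 and 50.4 CPM in NICD_mut, against 48.0, 47.9 and 44.2 CPM in NICD_wt, and did not pass (0.09 log2, SE 0.08, adjusted p = 0.347). Esrrb was rare, at 42 and 22 counts for NICD_mut libraries, against 33, 58 and 28 counts for NICD_wt libraries, and its groups overlapped (-0.39 log2, SE 0.43, adjusted p = 0.489). Beside the falls of Esrrg and Ppargc1a, the markers of the thick ascending limb and distal tubule fell in 8 of 8 tested cases. Those markers summed to 11.0 and 11.4 CPM in NICD_mut, against 423, 497 and 449 CPM in NICD_wt. No count of Slc12a1, Slc12a3 or Kcnj1 was found in NICD_mut 2. Their part in these results was not tested.

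Of the uptake and activation genes, Slc27a2 and Cd36 rose and Fabp3 fell. Slc27a2 (chromosome 2, 126552407 to 126588243, plus strand, mm10) encodes FATP2, a transporter and very long-chain acyl-CoA synthetase that is abundant in the proximal tubule. It had 66.2 and 44.6 CPM in NICD_mut, against 21.6, 30.5 and 26.6 CPM in NICD_wt. The groups did not overlap, NICD_mut 1 was highest, and the change was 1.08 log2 (SE 0.22, adjusted p = 0.0103; 0.76 without NICD_mut 1). Cd36 (chromosome 5, 17781690 to 17888801, minus strand), a fatty acid receptor of endothelium and macrophages, had 28.0 and 22.3 CPM in NICD_mut, against 13.3, 12.4 and 13.5 CPM in NICD_wt. It rose by 0.94 log2 (SE 0.13, adjusted p = 0.000438), with no overlap between the groups. Markers of both cell types were higher as well. Endothelial markers rose in 8 of 8 cases and summed to 969 and 1072 CPM in NICD_mut, against 617, 668 and 624 CPM in NICD_wt. Macrophage and leukocyte markers rose in 7 of 8 cases and summed to 176 and 163 CPM in NICD_mut, against 68.7, 63.7 and 62.8 CPM in NICD_wt. Among all tested genes 23.0% rose. Ptprc, the leukocyte marker that did not rise, had 6.47 and 5.77 CPM in NICD_mut, against 8.26, 9.12 and 6.50 CPM in NICD_wt. It did not pass (-0.38 log2, SE 0.21), though both NICD_mut values lay below all NICD_wt values. The part of endothelium, macrophages and leukocytes in the Cd36 result was not tested.

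Fabp3 (chromosome 4, 130308595 to 130315463, plus strand), a cytosolic fatty acid carrier known from heart and skeletal muscle, had 10.5 and 6.21 CPM in NICD_mut, against 15.6, 18.6 and 14.96 CPM in NICD_wt. Both NICD_mut values were below the NICD_wt values, a change of -0.97 log2 (SE 0.23, adjusted p = 0.00835). The library rich in muscle transcripts, NICD_mut 1, was the higher of the NICD_mut pair, and without it the change was -1.40 log2. Acsl1, the main long-chain acyl-CoA synthetase of oxidising tissues, had 41.1 and 38.7 CPM in NICD_mut, against 34.8, 37.3 and 34.1 CPM in NICD_wt. It did not pass (0.17 log2, SE 0.09, adjusted p = 0.130). Fabp1 had 2 and 5 counts across the NICD_mut libraries, against 0, 3 and 0 across the NICD_wt libraries. The ratio of its pooled shares was 3.28, with a 95% counting interval of 0.748 to 19.6, so no difference was detectable at this depth. That interval covers counting error only.

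The carnitine shuttle brings long-chain acyl groups into the mitochondrion, and its first and last enzymes rose. Cpt1a (chromosome 19, 3322334 to 3385733, plus strand), the rate-controlling outer membrane enzyme in most tissues, had 133 and 157 CPM in NICD_mut, against 86.2, 90.3 and 87.2 CPM in NICD_wt. The change was 0.73 log2 (SE 0.08, adjusted p = 9.39e-05). Cpt2 (chromosome 4, 107903981 to 107923610, minus strand), the inner membrane partner, had 62.1 and 81.8 CPM in NICD_mut, against 39.4, 45.1 and 42.7 CPM in NICD_wt. It rose by 0.76 log2 (SE 0.12, adjusted p = 0.00139). For both genes the groups did not overlap, NICD_mut 2 was highest, and the call held without each library. The carrier between them, Slc25a20, had 29.5 and 37.1 CPM in NICD_mut, against 29.3, 31.3 and 33.4 CPM in NICD_wt. Those groups overlapped (0.09 log2, SE 0.12, adjusted p = 0.572).

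Cpt1b, the muscle form of the outer membrane enzyme, fell. It had 5.82 and 2.37 CPM in NICD_mut, against 9.01, 7.35 and 9.38 CPM in NICD_wt, a change of -1.06 log2 (SE 0.37, adjusted p = 0.0467). The groups did not overlap, and NICD_mut 1 was again the higher of its pair. Without NICD_mut 1 the change was -1.85 log2 (adjusted p = 0.000104), and without NICD_mut 2 it was -0.57 log2 and did not pass (adjusted p = 0.0623). The call was also lost without NICD_wt 1, 2 or 3 (adjusted p = 0.122, 0.0838 and 0.126). In the mm10 annotation Gm44502, on the same strand and not a row of the count table, shares 81.4% of the Cpt1b exon bases. Skeletal muscle markers, listed at 3197 CPM in NICD_mut 1 against 22.7 CPM in NICD_mut 2, passed in 0 of 8 cases by edgeR, also 0 at an unadjusted p under 0.05, in 0 by limma on TPM and in 3 by DESeq2, all higher. Heart muscle markers passed in 0 of 5 tested cases by edgeR, also 0 at an unadjusted p under 0.05, in 0 by limma and in 1 by DESeq2, and summed to 810 and 6.91 CPM in NICD_mut, against 47.5, 12.5 and 10.7 CPM in NICD_wt. Most of that sum in NICD_mut 1 was Actc1, at 655 and 5.08 CPM in NICD_mut, against 28.7, 8.75 and 8.11 CPM in NICD_wt. Myh7 had 81.6 and 0.099 CPM, against 12.6, 0.982 and 0.575 CPM. Tnnt2 had 63.1 and 0.691 CPM, against 4.38, 1.92 and 1.04 CPM. Myh6 had 9.05 and 0.345 CPM, against 0.805, 0 and 0.288 CPM. Tnni3 was not high in NICD_mut 1, at 0.610 CPM. Nppa, the atrial hormone, had 0 counts in both NICD_mut libraries, against 1, 0 and 0 counts in NICD_wt. The part of skeletal and heart muscle in the levels of Fabp3 and Cpt1b was not tested.

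**Figure D3:**
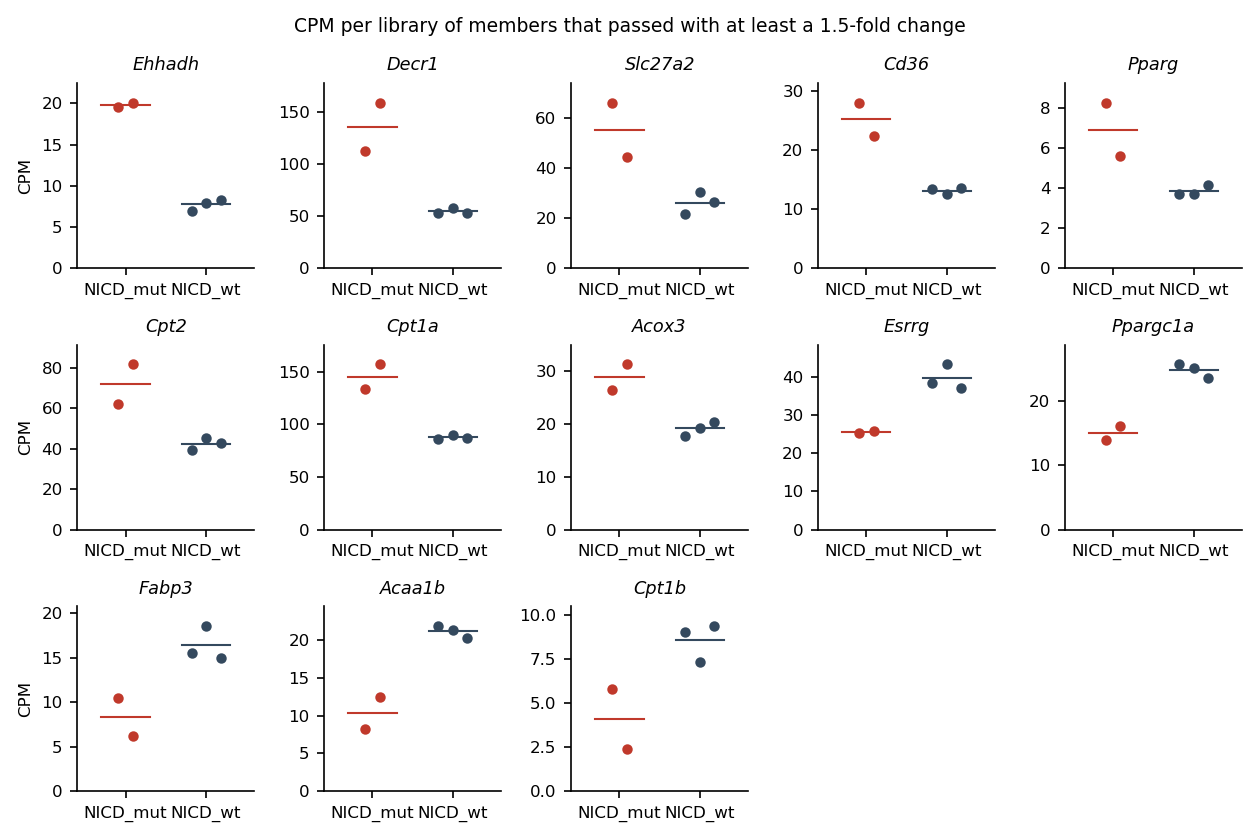
CPM in each library (points; lines are group means) for the 13 members that passed with at least a 1.5-fold change, from Ehhadh to Cpt1b by log2 fold change. In each panel the 2 NICD_mut points and the 3 NICD_wt points do not overlap, and the NICD_mut points of Decr1, Slc27a2 and Cpt1b lie far apart.

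The acyl-CoA dehydrogenases start each cycle and differ in chain length. The long-chain enzyme Acadl had 112 and 108 CPM in NICD_mut, against 85.4, 79.1 and 81.9 CPM in NICD_wt, and rose by 0.42 log2 (SE 0.06, adjusted p = 0.000547). The medium-chain enzyme Acadm had 133 and 141 CPM in NICD_mut, against 102, 116 and 112 CPM in NICD_wt, and rose by 0.32 log2 (SE 0.07, adjusted p = 0.00556). Neither pair of groups overlapped, and both calls held without each library. The short-chain enzyme Acads went the other way, with 57.8 and 72.1 CPM in NICD_mut, against 77.1, 80.8 and 80.5 CPM in NICD_wt. Its change of -0.29 log2 (SE 0.09, adjusted p = 0.0297) was not called without NICD_mut 1 (-0.14 log2, adjusted p = 0.139). Without NICD_wt 1, 2 or 3 the adjusted p was 0.0629, 0.101 and 0.104. Acadvl, the very long-chain enzyme, had 76.8 and 82.2 CPM in NICD_mut, against 76.5, 75.0 and 73.5 CPM in NICD_wt, and did not pass (0.08 log2, SE 0.06, adjusted p = 0.303). Dvl2, on the opposite strand, overlaps 1151 of its exon bases, and whether counting used strand is not given in the sources used here. Acad10 and Acad11 did not pass either, at -0.07 log2 (SE 0.19) and 0.09 log2 (SE 0.11).

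Of the enzymes that complete the mitochondrial cycle, Decr1 changed most. Decr1 (chromosome 4, 15917240 to 15945507, minus strand) encodes the 2,4-dienoyl-CoA reductase needed for polyunsaturated chains. It had 113 and 159 CPM in NICD_mut, against 53.5, 57.8 and 53.2 CPM in NICD_wt, a 2.48-fold rise (1.31 log2, SE 0.14, adjusted p = 0.000823). The NICD_mut libraries differed from each other, yet the lower was still above every NICD_wt library, and the change was 1.04 to 1.54 log2 with each library left out. Acaa2, the mitochondrial thiolase, had 121 and 122 CPM in NICD_mut, against 102, 102 and 106 CPM in NICD_wt, and rose by 0.23 log2 (SE 0.06, adjusted p = 0.00950). Echs1, the short-chain hydratase, fell. It had 85.8 and 86.9 CPM in NICD_mut, against 112, 119 and 111 CPM in NICD_wt (-0.40 log2, SE 0.06, adjusted p = 0.000748). Neither of these genes had overlapping groups. Eci2, an enoyl-CoA isomerase, had 80.9 and 92.5 CPM in NICD_mut, against 80.7, 73.0 and 76.3 CPM in NICD_wt. Its change of 0.18 log2 (SE 0.08, adjusted p = 0.0889) passed without NICD_mut 1 (0.27 log2, adjusted p = 0.0107). The isomerase Eci1 and the short-chain dehydrogenase Hadh did not pass, at 0.00 log2 (SE 0.09) and -0.05 log2 (SE 0.07).

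Hadha and Hadhb encode the α and β subunits of the mitochondrial trifunctional protein and lie head to head on chromosome 5. Hadha runs on the minus strand from 30155162 down to 30118304, and Hadhb on the plus strand from 30155248 to 30184593 (mm10, GENCODE), with starts 86 bases apart. The stretch between both starts is shown because both neighbours flank it and 1 of them passed.
Hadha to Hadhb gap, chr5:30155163-30155247, plus strand (GRCm38.p6, RefSeq): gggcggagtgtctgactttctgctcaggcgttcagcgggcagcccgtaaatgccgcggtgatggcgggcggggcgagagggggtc
Hadha had 244 and 244 CPM in NICD_mut, against 196, 193 and 196 CPM in NICD_wt, and rose by 0.32 log2 (SE 0.06, adjusted p = 0.00132). Hadhb had 107 and 116 CPM in NICD_mut, against 118, 116 and 115 CPM in NICD_wt, and its groups overlapped (-0.06 log2, SE 0.06, adjusted p = 0.452). The Hadha to Hadhb ratio of TPM was 1.14 and 1.04 in NICD_mut, against 0.832, 0.820 and 0.850 in NICD_wt, a difference of 0.39 log2. The groups do not overlap. The two-sided exact permutation p = 0.2 was got by doubling the one-sided value, and is the smallest that this way gives for 2 libraries against 3.

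Of 5 peroxisomal members 3 rose and 1 fell, where 23.0% and 24.8% of all tested genes did so, and 1 of the rises and the fall belong to near-identical thiolase copies. Ehhadh (chromosome 16, 21761287 to 21787807, minus strand), the peroxisomal bifunctional enzyme and a classical PPARα target, had 19.5 and 20.1 CPM in NICD_mut, against 6.95, 7.95 and 8.29 CPM in NICD_wt. This was a 2.56-fold rise (1.36 log2, SE 0.14, adjusted p = 8.29e-05), with tight and separate groups. Acox3, a branched-chain acyl-CoA oxidase, had 26.3 and 31.2 CPM in NICD_mut, against 17.7, 19.2 and 20.3 CPM in NICD_wt, and rose by 0.59 log2 (SE 0.12, adjusted p = 0.00300). Acox2, the bile acid and branched-chain oxidase, was barely present, at 13 and 11 counts for NICD_mut libraries, against 7, 2 and 3 counts for NICD_wt libraries. It did not pass (1.46 log2, SE 0.74, adjusted p = 0.135). Beside the rises of Ehhadh, Decr1, Slc27a2 and Cpt1a, proximal tubule markers rose in 11 of 20 cases and fell in 4. They summed to 1902 and 2080 CPM in NICD_mut, against 875, 1071 and 924 CPM in NICD_wt, and none was at 0 in any library. Liver markers rose in 2 of 6 tested cases (33.33%), where 23.0% of all tested genes rose. They summed to 138 and 140 CPM in NICD_mut, against 66.0, 95.2 and 57.1 CPM in NICD_wt. The rises were Fgb, at 50.8 and 60.3 CPM against 3.02, 2.39 and 2.13 CPM, and Serpina1a. Alb, Afp, Apoa1 and Ahsg did not pass, and their groups overlapped. Alb had 20.8 and 6.76 CPM in NICD_mut, against 12.0, 24.0 and 4.49 CPM in NICD_wt. The part of proximal tubule and liver cells in the rises of Ehhadh, Decr1, Slc27a2 and Cpt1a was not tested.

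The peroxisomal thiolase copies moved in opposite directions. Acaa1a had 114 and 120 CPM in NICD_mut, against 91.1, 101 and 97.9 CPM in NICD_wt, and rose by 0.27 log2 (SE 0.07, adjusted p = 0.00808). Acaa1b had 8.21 and 12.5 CPM in NICD_mut, against 21.9, 21.4 and 20.3 CPM in NICD_wt, and fell by 1.03 log2 (SE 0.18, adjusted p = 0.00145). Neither pair of groups overlapped, and both calls held without each library. The longest reading frames of the pair, each 1275 bases long, are identical at 96.55% of positions. RSEM divides reads that match both copies by estimation, so each single value is uncertain. The sum of the copies was 123 and 132 CPM in NICD_mut, against 113, 123 and 118 CPM in NICD_wt, and there the groups overlapped. The Acaa1a to Acaa1b ratio of TPM was 13.1 and 8.98 in NICD_mut, against 3.90, 4.43 and 4.53 in NICD_wt (two-sided exact permutation p = 0.2). By contrast Cpt1a and Cpt1b share 68.97% of aligned positions. Their TPM ratio was 14.99 and 43.1 in NICD_mut, against 6.25, 7.98 and 6.06 in NICD_wt (two-sided exact permutation p = 0.2). These pairs were chosen with their values known.

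**Figure D4:**
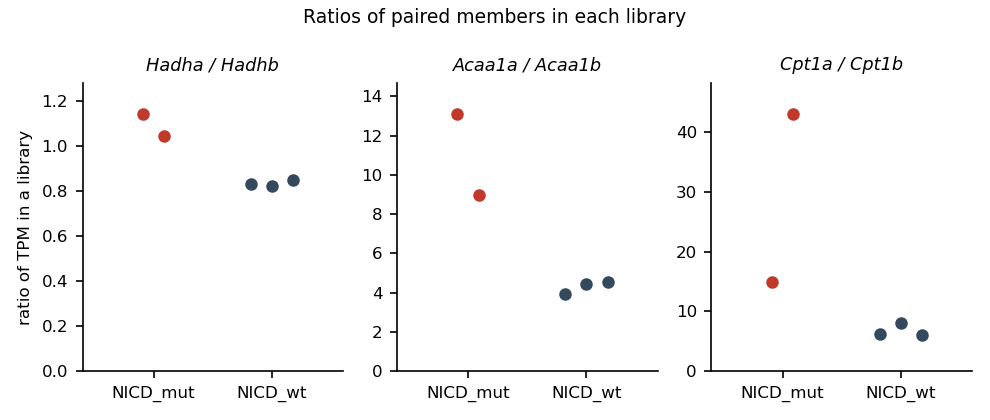
Ratio of TPM between paired members in each library (points), NICD_mut left and NICD_wt right, for Hadha over Hadhb, Acaa1a over Acaa1b and Cpt1a over Cpt1b; all axes start at 0. Every NICD_mut ratio lies above every NICD_wt ratio in the 3 panels, and the Cpt1a over Cpt1b ratio is 14.99 in NICD_mut 1 and 43.1 in NICD_mut 2.

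The electron-transfer genes, which carry electrons from the dehydrogenases to the respiratory chain, passed in 0 of 3 cases by edgeR, 0 at an unadjusted p under 0.05, 0 by DESeq2 and 1 by limma on TPM (Etfdh), and their groups overlapped in CPM. Etfa had 116 and 123 CPM in NICD_mut, against 124, 118 and 119 CPM in NICD_wt (-0.01 log2, SE 0.06, adjusted p = 0.894). Etfb was at -0.03 log2 (SE 0.07, adjusted p = 0.731), and Gm45233, on the same strand and not a row of the count table, shares 53.01% of its exon bases. Etfdh, the membrane oxidoreductase that takes the electrons on, had 78.6 and 82.0 CPM in NICD_mut, against 71.1, 71.6 and 81.0 CPM in NICD_wt (0.11 log2, SE 0.07, adjusted p = 0.266).

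Leaving out each library in turn left 12 or 13 members higher and 5 or 6 lower. No member that passed changed direction in these fits. The changes of Decr1, Cpt1a, Cpt2 and Acox3 were larger without NICD_mut 1, and those of Slc27a2, Cd36 and Pparg were larger without NICD_mut 2. Leaving out a NICD_mut library keeps a lone NICD_mut library, which is then assumed to vary like the NICD_wt libraries. With NICD_mut 1 and NICD_wt 1 both left out, 13 members rose and 6 fell.

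**Figure D5:**
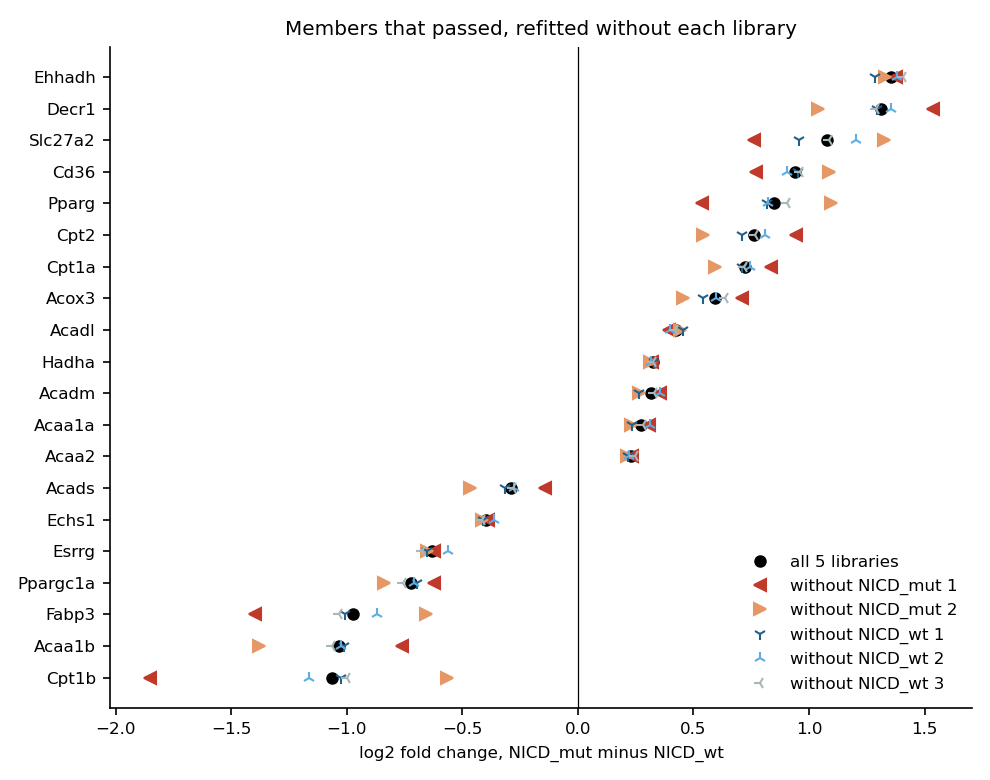
Log2 fold change, NICD_mut minus NICD_wt, of the 20 members that passed, fitted with all 5 libraries (black) and without each library in turn (coloured marks). No mark crosses 0; Cpt1b spreads most, at -1.85 without NICD_mut 1 and -0.57 without NICD_mut 2, while Hadha and Acaa2 hardly spread.

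Promoter sequence was read for 35 of the members, from RefSeq windows of 250 bases before to 50 after the start (GRCm38.p6). The motif AGGTCANAGGTCA, the direct repeat that PPAR and RXR bind, was searched on both strands with up to 2 mismatches. It was in 6 of 43 windows of members (14.0%), where 3.86% of all 32851 windows read hold it. The genes were Acox2, Cd36, Echs1, Etfa, Fabp1 and Slc25a20. The exact letters TCAAGGTCA of the estrogen-related receptor element and CAAAGTCCA of an HNF4 element were in 0 of the 43 windows, where 0.42% and 0.47% of all windows hold them. TGGGAA, the core that the Notch partner RBPJ binds, was in 8 of 43 (18.6%), where 25.56% of all windows hold it. A match is a description of letters and not a site. The 150 bases before the RefSeq start are given for the 4 members with a match there. They are shown because they include members that rose, fell, did not pass and could not be tested. Capitals mark the match.
Cd36, chr5:17835897-17836046, minus strand: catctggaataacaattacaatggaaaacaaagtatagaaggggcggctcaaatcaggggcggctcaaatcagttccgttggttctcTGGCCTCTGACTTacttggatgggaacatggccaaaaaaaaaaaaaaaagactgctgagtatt
Fabp1, chr6:71199729-71199878, plus strand: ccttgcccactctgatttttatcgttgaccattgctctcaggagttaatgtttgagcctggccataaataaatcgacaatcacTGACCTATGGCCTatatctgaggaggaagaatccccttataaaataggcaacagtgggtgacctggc
Echs1, chr7:140116422-140116571, minus strand: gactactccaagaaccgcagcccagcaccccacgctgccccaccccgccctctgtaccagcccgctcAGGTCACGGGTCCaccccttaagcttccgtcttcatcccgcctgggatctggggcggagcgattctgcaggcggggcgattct
Etfa, chr9:55512244-55512393, minus strand: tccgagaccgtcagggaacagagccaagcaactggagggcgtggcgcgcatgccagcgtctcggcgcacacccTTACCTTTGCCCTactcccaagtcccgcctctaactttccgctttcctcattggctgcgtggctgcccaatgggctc
Of these, Cd36 rose, Echs1 fell, Etfa did not pass and Fabp1 had almost no counts. The matches lie between positions -83 and -51 from the RefSeq start. For Cd36, Fabp1 and Echs1 that start lies inside the GENCODE gene, which begins at 17888801, 71199827 and 140116476. The match in Fabp1 has 1 mismatch and the others have 2.

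Other genes of the pathway, from lists drawn up by function, were counted the same way. Of 117 listed, 116 were in the table and 107 were tested, of which 30 rose and 15 fell. These are 28.0% and 14.0%, where 23.0% and 24.8% of all genes did so, and their median was 0.09 log2. Other targets of PPAR receptors had the highest median of these lists, 0.74 log2. Of 13 tested, 7 rose (53.85%) and 0 fell by edgeR, with 0 lower at an unadjusted p under 0.05 and 0 lower by DESeq2 or limma. The lipid droplet coat gene Plin2 rose by 0.72 log2 (SE 0.07), Angptl4, a secreted lipase inhibitor, by 1.19 (SE 0.14) and the mitochondrial carrier Ucp2 by 0.53 (SE 0.08). Cyp4a31, a fatty acid hydroxylase with close copies that can share its reads, rose by 0.90 (SE 0.15).

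Of 29 other peroxisomal genes 7 rose and 0 fell by edgeR, with 1 lower at an unadjusted p under 0.05 and 0 lower by DESeq2 or limma. The rises are 24.1%, close to the 23.0% of all tested genes that rose, while 24.8% of all tested genes fell. The auxiliary reductases Decr2 and Pecr rose by 0.77 log2 (SE 0.09) and 0.55 (SE 0.09). Of 7 tested genes of the carnitine system 4 rose (57.1%) and 1 fell (14.3%). The peroxisomal carnitine octanoyltransferase Crot fell by 0.47 log2 (SE 0.08). Slc22a5, the carnitine importer, rose by 0.42 (SE 0.13), Cpt1c by 0.54 (SE 0.16) and Aldh9a1, an enzyme of carnitine synthesis, by 0.24 (SE 0.08). These 3 rises were each lost without 2 or 3 of the libraries left out in turn, Cpt1c without NICD_mut 1 or NICD_wt 3. Slc22a5 did not pass without NICD_mut 2 (0.24 log2), NICD_wt 2 or NICD_wt 3, and Aldh9a1 without NICD_mut 2 (0.16 log2), NICD_wt 1 or NICD_wt 2.

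Of 21 tested uptake, activation and thioesterase genes 6 rose and 5 fell. These are 28.6% and 23.8%, where 23.0% and 24.8% of all tested genes did so. The kidney acyl-CoA synthetase Acsm2 rose by 1.17 log2 (SE 0.09), the transporter Slc27a1 by 0.88 (SE 0.11) and the brain-type carrier Fabp7 by 2.56 (SE 0.24), while the epidermal carrier Fabp5 fell by 0.85 (SE 0.07). Among 16 further mitochondrial and ketone body enzymes 4 rose (25%) and 6 fell (37.5%). Ech1, an isomerase for unsaturated chains, rose by 0.73 log2 (SE 0.08). Bdh1 and Oxct1, which turn over ketone bodies, fell by 1.88 (SE 0.16) and 0.44 (SE 0.06). Of 21 receptor partners and coregulators 2 rose (9.52%) and 3 fell (14.29%). Rxra, the partner of the PPARs, rose by 0.39 log2 (SE 0.07). Pprc1, a relative of PGC-1, fell by 0.35 (SE 0.07), as did Nrf1, a regulator of mitochondrial genes, by 0.41 (SE 0.07).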

How the data were processed

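Bulk RNA sequencing of 2 NICD_mut and 3 NICD_wt kidney libraries was used. The submitters' processing notes name RSEM, Bowtie2 and mm10. Their versions, the gene annotation and the strandedness were not given in the sources used here. The authors deposited estimated counts per gene symbol, which are whole numbers and needed no rounding, and TPM values. Columns were matched to samples by title.

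Low genes were removed by filterByExpr (count 10, total 15) and libraries were scaled by TMM, and NICD_mut was tested against NICD_wt with the edgeR 4.0.16 quasi-likelihood test (robust) in R 4.3.3. P-values were Benjamini-Hochberg adjusted over all 15885 tested genes, with a threshold of 0.05. The SE is the log2 fold change divided by the root of the test statistic. The fit was tested on simulated data. Alternatives were other scalings and filters, a replicate block, leaving out libraries, DESeq2 1.42.0, and limma 3.58.1 on log2(TPM + 1) and log2(TPM + 0.1).

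The members and lists were chosen with earlier results of these data known. Values per library are given for the regulators, for members that passed with a change of at least 1.5-fold, for those whose call depends on 1 library and for those not tested; some others were added after their values were seen. Of the other pathway genes, up to 4 that passed are named per list, by adjusted p; some genes that this rule takes are not reported here. Gene coordinates and exon overlaps are from GENCODE M21 (mm10), and promoters from RefSeq (GRCm38.p6). Reading frames were aligned with Biopython 1.88.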

Additional observations from a re-analysis of the deposited data

How the results depend on the processing

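Under other scalings, filters and tests of the counts, 13 members rose and 6 or 7 fell, and the counts of all genes and of other pathway genes stayed within 1.5 times those reported. Without each library in turn 5898 to 8050 genes passed, with 12 to 13 members higher and 5 to 6 lower, and 23 to 31 other pathway genes higher and 13 to 19 lower. With the replicate block, 5535 genes passed, with 10 members higher and 6 lower, and Pparg, Slc27a2, Acaa2 and Acads did not pass (edgeR, adjusted p = 0.0606, 0.131, 0.0560 and 0.0621); nor did Cpt1c, Slc22a5 and Aldh9a1. The libraries share only a number. Deviations from the group means correlated across genes at 0.339 for the libraries numbered 1 and 0.132 for those numbered 2. NICD_mut 2 and NICD_wt 3, with unlike numbers, gave 0.239. With 2 NICD_mut libraries their deviations mirror each other, so each value has its opposite, and genes are not independent. Cpt1b did not pass under the stricter filter (50 counts in 2 libraries), at -1.04 log2, nor in TPM at either pseudocount (-0.80 and -1.04).

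The sign changed only for members that did not pass in any of these fits. In log2(TPM + 1) and log2(TPM + 0.1), Acad10 was at 0.11 and 0.12, Hadh at 0.067 and 0.068, Hadhb at 0.060 and 0.061, Etfa at 0.11 and Etfb at 0.086, and log2(TPM + 1) without the filter gave the same values as with it. Eci1 was at -0.0031 with library size alone and -0.013 with no filter. Etfa was at 0.0098 under the stricter filter, and at 0.044 without NICD_mut 1 and NICD_wt 1, where Etfb was at 0.0073; with the replicate block Etfb was at 0.015. With single libraries left out, Ppargc1b ranged from -0.028 to 0.12, Slc25a20 from -0.10 to 0.24, Acad10 from -0.39 to 0.19, Eci1 from -0.093 to 0.083, Etfa from -0.062 to 0.028 and Etfb from -0.10 to 0.025. The cause of these changes was not tested. With 2 libraries against 3, the members with fewest counts (Fabp1, Acox2, Esrrb) carry the widest errors.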
